A study of Mus musculus with 6 samples.

Results

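The 10 genes described here encode the MCM helicase and the proteins that license origins of DNA replication, and they were matched by symbol among the 53801 gene identifiers of each tumour's count table. They are Mcm2, Mcm3, Mcm4, Mcm5, Mcm6 and Mcm7, the subunits of the helicase ring, Cdc6 and Cdt1, the loaders, Gmnn, the inhibitor of Cdt1, and Mcm10, a helicase cofactor. All 10 were found, and 6 of them had enough reads to be tested with the 7561 genes that passed the filter on low counts. RNA was taken from pieces of melanomas in wild type C57BL/6 mice, with 3 tumours in each of 2 groups (n = 3). All tumours came from B16-F10, a mouse melanoma cell line, injected under the skin of adult male animals that were awake. SEVO tumours grew from cells primed in a chamber with sevoflurane, a volatile anaesthetic, before injection, and CTRL tumours from unprimed cells. The pieces could hold host cells as well as melanoma cells. Per the methods a newly thawed stock of cells was used for each experimental group, so priming and cell stock cannot be told apart. The labels do not tie the tumours to single mice, and p-values measure only the spread between these 6 tumours.

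Before a cell copies its DNA, the origin recognition complex and Cdc6 bind each origin, and Cdt1 brings the ring of Mcm2 to Mcm7, which is loaded in an inactive form. In S phase the ring is activated with Cdc45 and the GINS proteins, unwinds the DNA, and geminin, the product of Gmnn, keeps Cdt1 from loading new rings. Genes of this group are known targets of E2F transcription factors and are commonly read as signs of cells that are dividing or able to divide.

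The promoters of these genes are shown because Mcm7 varied far less from tumour to tumour than the other 9 genes, as described below. RefSeq promoter windows on GRCm38.p6, from 250 bases before to 50 bases after the start, were given for 8 of the 10 genes. Mcm4 and Gmnn had no entry. The windows were searched on both strands for the E2F words TTTGGCGC, TTTCGCGC, TTTCCCGC and TTTGCCGC and for CCAAT, which may overlap. At least 1 E2F word was found in 6 of the 8 windows, in Mcm3, Mcm5, Mcm6, Mcm7, Cdt1 and Cdc6. The share was 2.32% of 27025 promoters of all genes and 2.94% of 16506 promoters of protein-coding genes, to which all members belong. CCAAT was found in 6 of the 8, against 37.9% of all promoters and 38.8% of those of protein-coding genes. Mcm2 and Mcm10 had CCAAT and no E2F word. The Mcm7 window held 2 E2F words, at 165 bases before and 16 bases after the start, and those of Mcm3 and Mcm5 also held 2. Whether these words bear on how much a gene varied between tumours was not tested. The windows of Mcm2, Mcm3, Mcm6 and Mcm7 follow, cut at 30 bases after the start, with E2F words and CCAAT in capitals on either strand (of the 2 E2F words of Mcm3, the one at 38 bases after the start lies beyond the printed bases):
Mcm2 (chr6:88898751-88899030, minus strand): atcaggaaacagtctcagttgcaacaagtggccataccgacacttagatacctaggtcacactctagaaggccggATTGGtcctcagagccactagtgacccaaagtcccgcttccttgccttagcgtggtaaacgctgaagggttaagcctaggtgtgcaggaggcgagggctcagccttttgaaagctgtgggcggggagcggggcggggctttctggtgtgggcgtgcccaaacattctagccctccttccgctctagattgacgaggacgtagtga
Mcm3 (chr1:20820283-20820562, minus strand): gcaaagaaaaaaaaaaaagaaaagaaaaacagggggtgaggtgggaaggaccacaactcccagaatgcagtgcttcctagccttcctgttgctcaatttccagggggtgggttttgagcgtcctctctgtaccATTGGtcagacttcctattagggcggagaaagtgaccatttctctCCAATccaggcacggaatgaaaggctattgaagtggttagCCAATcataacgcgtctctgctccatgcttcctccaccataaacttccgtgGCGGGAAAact
Mcm6 (chr1:128359676-128359955, minus strand): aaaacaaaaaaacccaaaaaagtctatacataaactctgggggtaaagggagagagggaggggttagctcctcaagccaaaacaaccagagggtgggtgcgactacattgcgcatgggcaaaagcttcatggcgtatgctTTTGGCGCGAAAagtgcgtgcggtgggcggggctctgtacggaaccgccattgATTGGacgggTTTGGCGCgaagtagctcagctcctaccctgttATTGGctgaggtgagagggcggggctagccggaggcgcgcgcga
Mcm7 (chr5:138171854-138172133, minus strand): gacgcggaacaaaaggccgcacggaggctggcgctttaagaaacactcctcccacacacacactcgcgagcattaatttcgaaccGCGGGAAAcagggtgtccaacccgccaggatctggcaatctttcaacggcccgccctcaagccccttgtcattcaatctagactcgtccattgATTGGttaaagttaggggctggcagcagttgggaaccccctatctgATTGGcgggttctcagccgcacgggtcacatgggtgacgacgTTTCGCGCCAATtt
The start used for Mcm7 lies 539 bases inside the GENCODE gene, which overlaps its neighbour on the other strand. A match is a description of letters and not of a bound site.

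Few reads lay on any of these genes. The tumours had 723431 to 1348676 reads on genes, or 2.06% to 4.61% of their uniquely aligned reads. The predicted genes Gm10800 and Gm10801 alone took 49%, 1.31% and 35.5% of these reads in CTRL tumours 1 to 3. In SEVO tumours 1 to 3 they took 7.97%, 8.71% and 18.7%. The TMM factors, which scale the libraries, ran from 0.713 in CTRL tumour 1 to 1.15 in CTRL tumour 2, so the base of each level was uneven between tumours. The strand setting used for counting is not given in the sources used here, and gene counts cannot tell whether the reads on any of the 10 genes came from its own strand or from the other. Every level and fold change below is of counted reads, and it is the expression of the named gene only if the counting matched the strand of the libraries, which was not tested. The 10 genes together had 250, 133 and 171 reads in CTRL tumours 1, 2 and 3, and 86, 117 and 192 reads in SEVO tumours 1, 2 and 3. Over all 6 tumours, single members had from 14 reads (Gmnn) to 225 reads (Mcm7). Levels are given as CPM, read counts relative to the library size after scaling with the TMM factors of edgeR. Some reads also lay on genes that melanoma cells should not use. On 1421 olfactory and vomeronasal receptor genes the density was 1.31, 0.077 and 0.596 reads per kb of exon in CTRL tumours 1 to 3, and 0.187, 0.213 and 0.401 in SEVO tumours 1 to 3. The members' summed reads were 4.25, 38.5 and 6.38 times what this receptor density would give over their exons in CTRL tumours 1 to 3, and 10.2, 12.2 and 10.7 times in SEVO tumours 1 to 3. CTRL tumours 1 and 2 therefore were at opposite ends of this background within 1 group. Among single members, Gmnn in CTRL tumour 1 was at 0.521 and Cdc6 in SEVO tumour 1 at 1.02 times the receptor density, so these values lay at or near the background.

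Scaled for exon length, Mcm7 had the highest level of the 10 genes at 9.73 ± 1.19 CPM per kb (SD over the 6 tumours). Mcm3 followed at 6.41 ± 3.58, Mcm2 at 5.59 ± 2.97, Mcm5 at 4.47 ± 3.24 and Mcm6 at 3.88 ± 1.58 CPM per kb. The lower levels were 2.77 ± 1.16 for Cdt1, 2.61 ± 1.71 for Mcm4, 1.82 ± 1.31 for Gmnn, 1.76 ± 2.04 for Cdc6 and 1.49 ± 1.01 CPM per kb for Mcm10. Of the neighbours in this order, only Mcm2 and Mcm5 differed by more than the SD of the difference between them over tumours (1.12 against 1.01 CPM per kb, higher in 6 of 6 tumours). In reads per kb, the members lay between the 59.0th (Mcm10) and 93.0th (Mcm7) percentile of protein-coding genes.

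The comparison of SEVO with CTRL tumours asked whether expression of the licensing genes differed after growth from primed cells. No member passed an adjusted p under 0.05 in the quasi-likelihood test of edgeR with Benjamini-Hochberg adjustment over all genes, and neither did any of the 7561 tested genes (0%), of which 330 had an unadjusted p under 0.05. At an unadjusted p under 0.02 and a fold change of at least 1.5, the thresholds of the study's methods, 0 of the 10 members were called. Of the tested genes 1.04% were called and 0.939% were called and lower in SEVO, and in the fit without the filter 0.627% of genes were called. The DESeq2 Wald test called 0.116% of genes and 0 members. The log2 fold change was below 0 for 5 of the 6 tested members, against 51.1% of all tested genes, with Mcm7 as the exception. It was below 0 for 3 of the 4 members taken from the fit without the filter, against 61.9% of genes there. Gmnn was the exception, though its mean CPM was 2.77 in CTRL and 2.56 in SEVO tumours. The 2 fits scale the libraries differently, and CPM follows the filtered fit. The log2 fold changes of Mcm4, Cdt1, Cdc6 and Gmnn therefore need not match their CPM, and the 2 counts are not on 1 scale. The median over the 6 tested members was -0.63, and over all tested genes it was -0.02. In the fit without the filter the same 6 members had a median of -0.17, above the median of -0.38 over all 42423 genes, so where the members lay relative to other genes depended on the filter. With the filter, the members' median was -1.28 without SEVO tumour 3, -0.42 without SEVO tumour 2, -0.24 without SEVO tumour 1 and -0.27 without CTRL tumour 1. The mean log2 CPM of the tested members was 4.83 ± 0.44 in CTRL and 4.24 ± 0.56 in SEVO tumours (SD, n = 3 each), a difference of the order of these SDs.

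**Figure D1:**
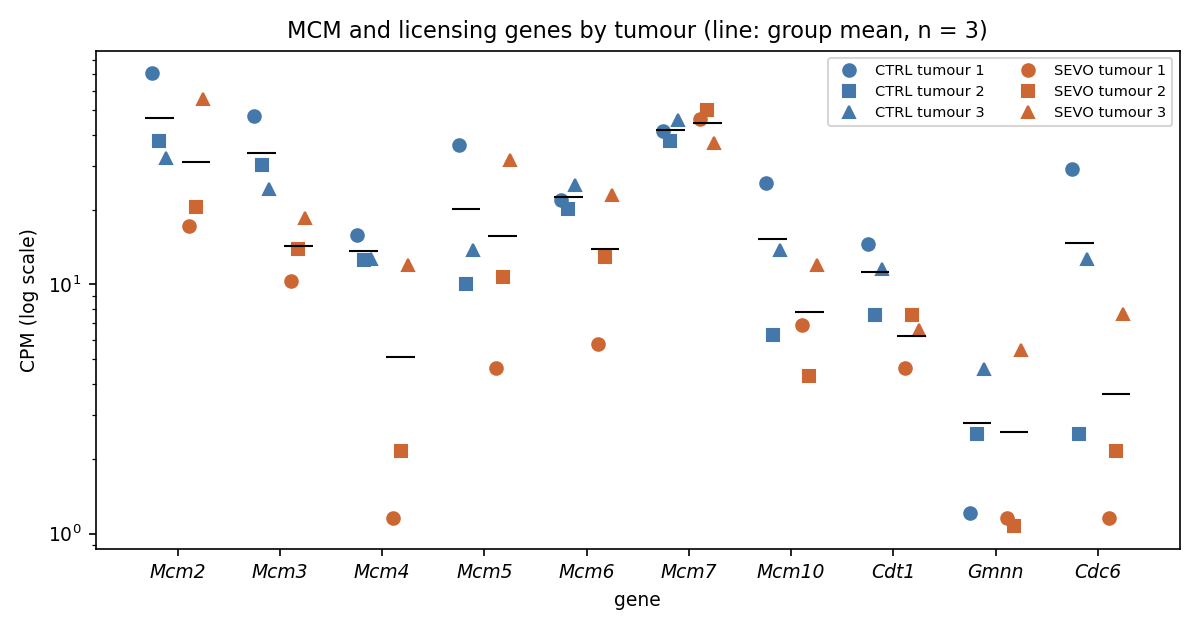
CPM (log axis) of the 10 genes in each tumour, with CTRL in blue, SEVO in orange, symbols for tumours 1 to 3 and a black line at each group mean (n = 3). Mcm3 is separated between the groups, Mcm7 stays between 37.1 and 50.4 CPM, and SEVO tumour 3 reaches the CTRL values in most other genes.

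Mcm3 had the lowest edgeR p of the 10 genes. This ring subunit (ENSMUSG00000041859.10, chr1:20802968-20820312, minus strand, GRCm38) had 39, 24 and 21 reads in CTRL tumours 1 to 3 and 9, 13 and 17 reads in SEVO tumours 1 to 3. In CPM these were 47.3, 30.1 and 24.1 against 10.3, 13.9 and 18.5. The groups did not overlap, in reads or in CPM, with the lowest CTRL tumour above the highest SEVO tumour. The group means were 33.9 ± 12.1 CPM for CTRL and 14.3 ± 4.11 CPM for SEVO (SD, n = 3). The log2 fold change was -1.23 (SE 0.47, adjusted p = 0.741 in edgeR). The unadjusted p was 0.0203 in edgeR. It was 0.1 in the exact two-sided permutation test, as for Mcm4 and Cdt1, the smallest that 3 tumours against 3 allow. The edgeR p lay just above the threshold of 0.02, and it fell under that threshold when the predicted genes Gm10800 and Gm10801 were left out of the libraries and when the receptor density was a covariate. It was higher in other settings, at 0.211 in edgeR with no filter, 0.146 in the DESeq2 Wald test, 0.0739 in edgeR with library size only, and 0.0904, 0.0873 and 0.0716 in edgeR without CTRL tumour 1, SEVO tumour 1 and SEVO tumour 2. The log2 fold change ranged from -1.41 to -0.71 over the alternatives, with an adjusted p in edgeR or DESeq2 between 0.142 and 1.0 over all alternatives. Of all tested genes, 4.36% had a p under 0.05, 8.56% had groups that did not overlap in CPM in either direction, and 4.39% had groups that did not overlap with SEVO lower.

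Mcm2, another ring subunit (ENSMUSG00000002870.8, chr6:88883474-88898780, minus strand), had 70.4, 37.6 and 32.1 CPM in CTRL tumours 1 to 3 and 17.2, 20.4 and 55.6 CPM in SEVO tumours 1 to 3. The groups overlapped because SEVO tumour 3, with 51 reads, lay above CTRL tumours 2 and 3, with 30 and 28 reads. The log2 fold change was -0.58 (SE 0.49, adjusted p = 0.748 in edgeR), with p = 0.3 from the exact permutation test. It was -1.25 without SEVO tumour 3 and -0.16 without CTRL tumour 1, -0.22 without SEVO tumour 1 and -0.27 without SEVO tumour 2. Mcm5 (ENSMUSG00000005410.6, chr8:75109569-75128439, plus strand) showed the same split within groups, with 30, 8 and 12 reads in CTRL against 4, 10 and 29 reads in SEVO tumours 1 to 3. CTRL tumour 1 and SEVO tumour 3 were the high tumours, and the group means were 20.1 ± 14.3 and 15.7 ± 14.2 CPM (SD, n = 3). Its log2 fold change of -0.35 (SE 0.71, adjusted p = 0.856 in edgeR) was above 0 under several other settings given in the closing section, so no direction is drawn for it.

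Mcm6 (ENSMUSG00000026355.11, chr1:128331590-128359664, minus strand) was even among the CTRL tumours, at 21.9, 20.1 and 25.2 CPM, and spread among the SEVO tumours, at 5.75, 12.9 and 22.9 CPM. SEVO tumour 3 lay within the range of the CTRL tumours, while SEVO tumours 1 and 2 lay below it. Its log2 fold change was -0.69 (SE 0.57, adjusted p = 0.748 in edgeR), and it was -1.20 without SEVO tumour 3 and -0.26 without SEVO tumour 1. Mcm4 (ENSMUSG00000022673.5, chr16:15623897-15637400, minus strand), also a ring subunit, had 13, 10 and 11 reads in CTRL and 1, 2 and 11 reads in SEVO tumours 1 to 3. It was below the filter on low counts and was tested among the 42423 genes with at least 1 read, where its log2 fold change was -0.97 (SE 0.75, adjusted p = 0.793 in edgeR). This was -2.37 without SEVO tumour 3 and -0.58 without SEVO tumour 1. In CPM its SEVO tumours all lay below the CTRL tumours, of which the lowest had 12.5, but in reads the groups overlapped, since SEVO tumour 3 had as many as CTRL tumour 3. Of the 42423 genes, 4.54% had CPM groups that did not overlap with SEVO lower.

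Mcm7, the remaining ring subunit (ENSMUSG00000029730.16, chr5:138164583-138172422, minus strand), stood apart from the other 9 genes. It had 41.3, 37.6 and 45.9 CPM in CTRL tumours 1 to 3 and 46.0, 50.4 and 37.1 CPM in SEVO tumours 1 to 3, from 30 to 47 reads per tumour. The range over the 6 tumours was 0.42 on the log2 scale, while it was 1.20 to 3.19 for the other 9 genes. Its log2 fold change was 0.10 (SE 0.33, adjusted p = 0.912 in edgeR, exact permutation p = 0.7), and it was below 0, at -0.12 and -0.09, in 2 other settings. Mcm7 is also the only member with exon bases opposite another gene, 385 of its 4426 exon bases, facing Ap4m1 at its start and Cops6 at its end. Ap4m1, a subunit of an adaptor complex for vesicle transport, had 130, 391 and 203 reads in CTRL and 381, 362 and 328 reads in SEVO tumours 1 to 3. Cops6, a subunit of the COP9 signalosome, had 53, 247 and 108 reads in CTRL and 250, 236 and 137 reads in SEVO tumours 1 to 3. Both neighbours had more reads than Mcm7 in every tumour and were lowest in CTRL tumour 1. Which strand the reads on Mcm7 came from cannot be told apart.

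Mcm7 also hosts 3 microRNAs, which are shown because 172 of its exon bases, over Mir25 and Mir93, lie on the same strand as those genes, where the gene of a read is ambiguous. Their mature sequences in RefSeq (GRCm38.p6, minus strand) are given with the seed, bases 2 to 8, in capitals:
mmu-miR-106b-5p (chr5:138165787-138165807): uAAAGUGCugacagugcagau
mmu-miR-93-5p (chr5:138165574-138165596): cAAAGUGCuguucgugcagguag
mmu-miR-25-3p (chr5:138165332-138165353): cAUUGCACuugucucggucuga
The first 2 share their seed, and the seed of mmu-miR-25-3p differs. Mir25 (84 exon bases) and Mir93 (88 exon bases) had 0 reads in all 6 tumours. Reads on bases shared with Mcm7 are ambiguous and may be counted for neither gene, so these zeros do not measure Mir25 or Mir93. Mir106b had 0, 1 and 0 reads in CTRL and 3, 1 and 0 reads in SEVO tumours 1 to 3, too few to show a difference.

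The loaders had fewer reads. Cdc6 (ENSMUSG00000017499.15, chr11:98907801-98923940, plus strand), the ATPase that closes the loading complex, had 24, 2 and 11 reads in CTRL and 1, 2 and 7 reads in SEVO tumours 1 to 3. Its range of 3.19 on the log2 scale was the widest of the 10 genes, and CTRL tumour 2 lay below SEVO tumour 3. The log2 fold change was -1.32 (SE 0.80, adjusted p = 0.793 in edgeR, tested without the filter). CTRL tumour 1 also had the highest receptor density, and at that density 6.85 of the 24 reads of Cdc6 in that tumour would be found. Without CTRL tumour 2, Cdc6 was called at the thresholds of the study with a log2 fold change of -1.69 (adjusted p = 0.303 in edgeR), when 6.2% of the genes in that fit, which had no filter, were called and 3.44% were called and lower. Its log2 fold change was -2.24 without SEVO tumour 3 and -0.85 without CTRL tumour 1. Cdt1 (ENSMUSG00000006585.3, chr8:122568015-122573554, plus strand) had 12, 6 and 10 reads in CTRL and 4, 7 and 6 reads in SEVO tumours 1 to 3. In CPM the lowest CTRL tumour had 7.53 and the highest SEVO tumour 7.51, so the groups touched, and in reads they overlapped. Its log2 fold change was -0.28 (SE 0.75, adjusted p = 0.946 in edgeR, tested without the filter), and it ranged from -0.50 to -0.17 when single tumours were left out. Its mean CPM, on the scaling of the filtered fit, was 11.2 in CTRL and 6.22 in SEVO tumours, a wider gap than this log2 fold change.

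Gmnn, the inhibitor (ENSMUSG00000006715.11, chr13:24751845-24761923, minus strand), had 1, 2 and 4 reads in CTRL and 1, 1 and 5 reads in SEVO tumours 1 to 3. Its 7 reads in each group give no direction, and a log2 fold change of 0.25 carried an SE of 1.19 (adjusted p = 0.955 in edgeR). Mcm10 (ENSMUSG00000026669.14, chr2:4989714-5012791, minus strand), which helps the loaded ring to start unwinding, had 21, 5 and 12 reads in CTRL and 6, 4 and 11 reads in SEVO tumours 1 to 3. The group means were 15.2 ± 9.69 and 7.73 ± 3.92 CPM (SD, n = 3), and CTRL tumour 2 lay within the range of the SEVO tumours. The log2 fold change was -0.96 (SE 0.70, adjusted p = 0.741 in edgeR). It was -0.37 without CTRL tumour 1, -0.56 without SEVO tumour 2 and -1.37 without SEVO tumour 3. At the receptor density alone 21.4 of its 59 reads over the 6 tumours would be found.

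**Figure D2:**
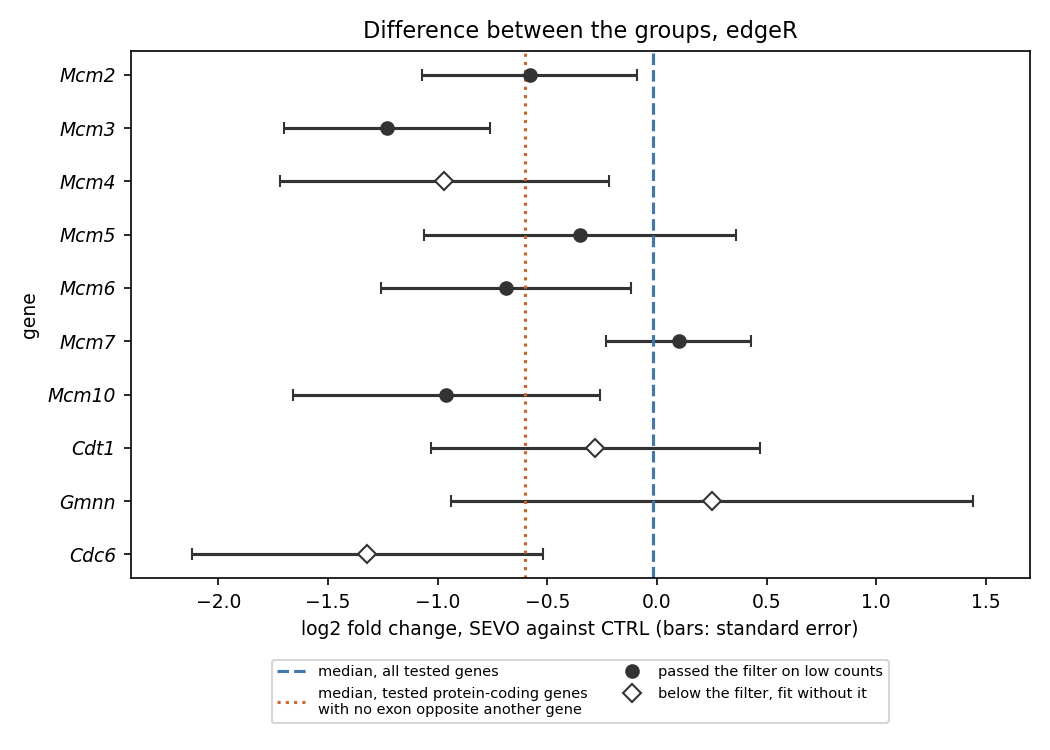
Log2 fold change of SEVO against CTRL tumours for each gene, with bars of 1 standard error from edgeR. Filled circles passed the filter on low counts, open diamonds come from the fit without it, whose median over all genes was -0.38, the dashed line is the median of all tested genes (-0.02), and the dotted line is the median of tested protein-coding genes with no exon opposite another gene (-0.60). Among the filled circles, the bars of Mcm2, Mcm5, Mcm6 and Mcm10 reach the dotted line.

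The lower values of the members were shared with genes of the same annotation class. Of the tested protein-coding genes with no exon opposite another gene, 2191 of 2752 (79.6%) had a log2 fold change below 0, with a median of -0.60. This median was not fixed: it was -0.25 without CTRL tumour 1, -0.43 without SEVO tumour 1, -0.87 without CTRL tumour 2, -1.01 without SEVO tumour 3, -0.27 with library size only, and -0.17, with 62.9% of the class below 0, with the background covariate. Among the 5 tested members of this class all 5 were below 0, with a median of -0.69. Tested protein-coding genes with exon bases opposite another gene, the class of Mcm7, had a median of -0.01, and 50.8% were below 0. The median of the members of the class without opposite exons differed by -0.09 from the median of that class, and this difference ranged from -0.42, with Mcm2 as the only such member at 10 reads or more in every tumour, to 0.25 over the other settings, and nothing particular to the licensing genes is drawn from it. In that class 7.7% of genes had a p under 0.05, as Mcm3 did, and 7.52% had all SEVO tumours below all CTRL tumours.

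The pattern over single tumours was alike for most members. When each gene was centred on its own mean log2 CPM, CTRL tumour 1 was the highest tumour in 7 of the 10 genes and SEVO tumour 1 the lowest in 7. The median over the genes was 0.93, -0.03 and 0.40 in CTRL tumours 1 to 3, and -0.92, -0.51 and 0.33 in SEVO tumours 1 to 3. SEVO tumour 3 thus lay with CTRL tumour 3 rather than with the other SEVO tumours. The receptor density, centred in the same way, was 2.13, -1.91 and 0.92 in CTRL and -0.75, -0.67 and 0.27 in SEVO tumours. It was ordered like the members in 5 tumours and differed in CTRL tumour 2, where it was lowest while 5 of the 10 genes lay above their mean. Its part in the members' differences was not tested beyond the fit with this density as a covariate, in which the median of the tested members was -0.35 and that of all tested genes 0.05.

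**Figure D3:**
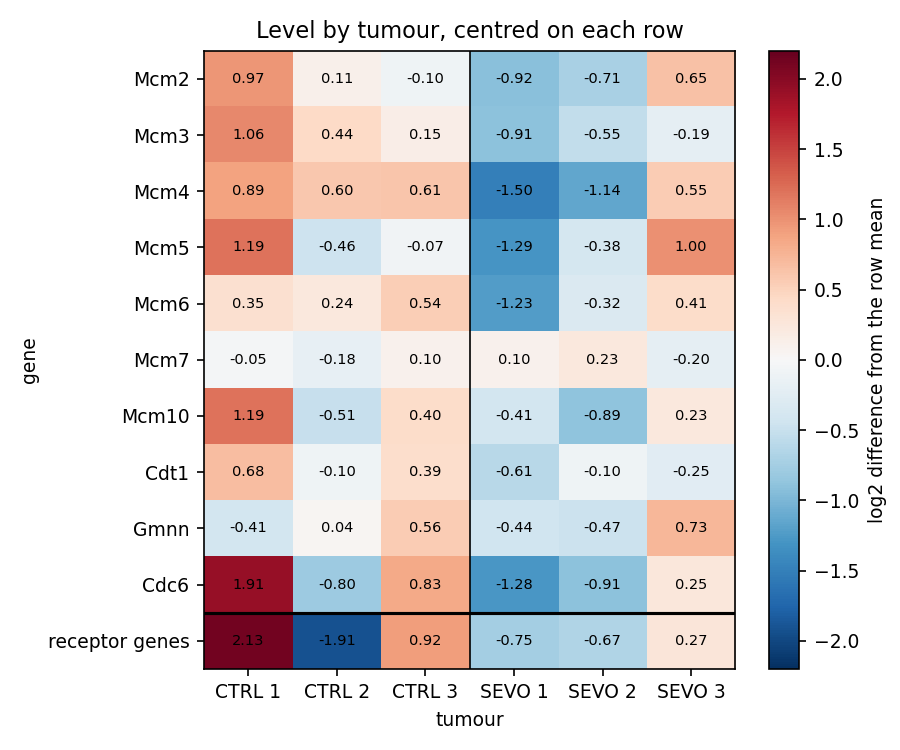
Log2 CPM of each gene (rows) in each tumour (columns), as the difference from the row mean, with red above and blue below it. The bottom row is the density over the receptor genes (log2), and Mcm7 is the only row that stays within 0.23 of its mean in every tumour.

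Melanoma markers were, like the members, low in SEVO tumours 1 and 2, and they differed from the members in the other tumours. The labels give the cells as monocytes and the tissue as melanoma. The summed level of 9 melanoma markers was 1280, 1320 and 1270 CPM in CTRL and 622, 725 and 1720 CPM in SEVO tumours 1 to 3. The sum was even over the CTRL tumours, where CTRL tumour 1 was highest for most members, and SEVO tumour 3 was above every CTRL tumour. No marker passed either threshold, and all 8 tested genes of the list had a log2 fold change below 0, with a median of -0.36. All of these but Pmel have no exon opposite another gene. Of tested protein-coding genes of that class, 79.6% were below 0, with a median of -0.60. The summed level of 9 monocyte and macrophage markers was 172 to 277 CPM in CTRL and 221 to 321 CPM in SEVO tumours, most of it from Csf1r, which has 873 exon bases opposite Hmgxb3. None of the 9 was at 0 in every tumour. Among them Lyz2 had 0 to 4 reads and Cd14 0 to 2 reads per tumour. Endothelial and fibroblast markers summed to 11.3 to 102 and 31.4 to 144 CPM in CTRL and to 8.58 to 43.6 and 15.0 to 60.0 CPM in SEVO tumours. T and NK cell markers summed to 7.53 to 80.1 CPM in CTRL and 27.6 to 30.5 CPM in SEVO tumours. Keratinocyte markers summed to 1 to 39 reads in CTRL and 4 to 11 reads in SEVO tumours. Erythroid markers summed to 147 to 242 CPM in CTRL and 189 to 210 CPM in SEVO tumours. Most of the erythroid sum came from Alas2 (102 to 189 CPM), which has 372 exon bases opposite Apex2 and Mir3620. Hbb-bs had 18.4 to 103 CPM and Hba-a1 0 to 4 reads per tumour. In such tissue, fewer cells of a type and less RNA per cell cannot be told apart, and the part of cell makeup in the members' differences was not tested.

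Other genes of DNA replication were described by 5 lists with 65 genes, of which 29 were tested. No gene of these lists passed an adjusted p under 0.05 or the thresholds of the study, and 20 of the 29 had a log2 fold change below 0, with a median of -0.30. Of all tested genes 51.1% were below 0, with a median of -0.02. Of tested protein-coding genes with no exon opposite another gene it was 79.6%, with a median of -0.60. Without CTRL tumour 2, 4 of the 29 met the thresholds of the study, Rfc5 and E2f5 as higher and Rfc1 and Pola1 as lower, when 16.2% of all tested genes met them and 11.4% met them and were lower. Without SEVO tumour 3, Rfc1, Rpa1 and Ddb1 met them as lower. In that fit 479 of 8383 tested genes (5.71%) met them in either direction, and 454 of these were lower. Of these, Rfc1, Pola1, Rpa1 and Ddb1 were named after their values were seen. Of the list for origin recognition and helicase activation, 9 of 16 genes were tested, with 6 below 0 and a median of -0.30. Its genes with the most reads were Gins2, of the GINS complex (825 reads, log2 fold change 0.21, SE 0.33), and Orc3, of the origin recognition complex (798 reads, 0.11, SE 0.35). Of the replication fork list, 9 of 24 were tested, with 6 below 0 and a median of -0.42. Its genes with the most reads were the clamp loader subunits Rfc5 (5047 reads, 0.47, SE 0.46) and Rfc4 (236 reads, 0.24, SE 0.50). Rfc5 was 1.15 without CTRL tumour 2 and 0.20 without CTRL tumour 1. Of the list for the turnover of Cdt1, Cdc6 and geminin, 5 of 9 were tested, all 5 were below 0 and the median was -0.64. Beside the shares given above, nothing particular to this list is drawn from 5 genes. Cul1, a scaffold of ubiquitin ligases, had 241 reads and a log2 fold change of -0.24 (SE 0.37), and Skp2, an F-box protein, had 133 reads and -0.41 (SE 0.41). Of the E2F and pocket proteins, 4 of 13 were tested, with 2 below 0 and a median of -0.03, and E2f5 (743 reads, 0.48, SE 0.46) and Rbl2 (481 reads, 0.14, SE 0.33) had the most reads. E2f5 was 1.29 without CTRL tumour 2 and 0.14 without CTRL tumour 1. Outside the ring, Mcm9, a relative with a role in DNA repair, had 1876 reads and a log2 fold change of 0.17 (SE 0.40), and Mcmbp, an MCM binding protein, had 135 reads and -0.18 (SE 0.43).

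Read density in these lists went with the annotation of the opposite strand, as in Mcm7. The 25 pathway genes with exon bases opposite another gene had a median of 36.6 reads per kb over the 6 tumours, and the 40 without had 9.72. For all protein-coding genes the medians were 11.0 and 5.51 reads per kb. Mcm9 has 1748 of 9113 exon bases opposite Asf1a, and Gins2 has 2758 of 4097 opposite Gse1. Rfc5 has 499 of 4669 opposite Wsb2, and Rfc4 has 194 of 1533 opposite Eif4a2. Rbl2 has 1585 of 7558, Cul1 192 of 4040 and E2f5 26 of 1782. Orc3, Mcmbp and Skp2 have none. Members included, the 17 tested genes with no opposite exon bases had a median log2 fold change of -0.68, with 15 below 0. The 18 with such bases had a median of -0.12, with 10 below 0. This is a description of the lists, and the medians of all tested protein-coding genes of the 2 classes, -0.60 and -0.01, lay in the same order.

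**Figure D4:**
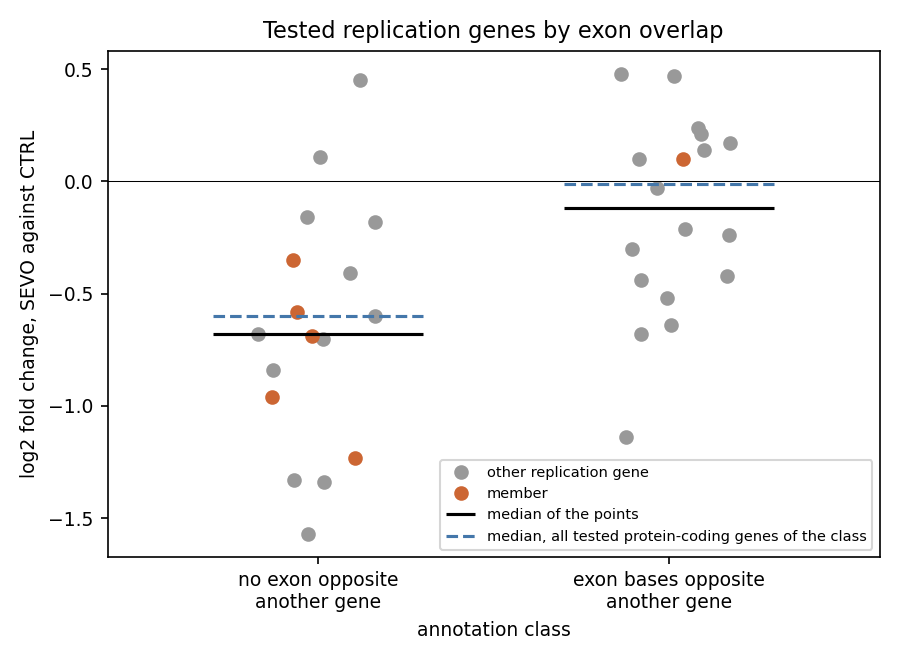
Log2 fold change of SEVO against CTRL tumours for the 35 tested replication genes, split by whether any exon base lies opposite an exon of another gene; members are orange, other genes grey, positions across a class are spread at random. Solid lines are the medians of the points (-0.68 and -0.12) and dashed lines the medians of all tested protein-coding genes of each class (-0.60 and -0.01).

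The genes whose pattern over the 6 tumours was most like the mean of the tested members were Mrs2, Prr15l, Polr1a, Hnrnpl and G3bp2. Likeness was the root mean square difference of centred log2 CPM over the 6 tumours, which was 0.0736 for Mrs2 and 0.0865 for G3bp2, the fifth of 7555 candidates. The members lay farther from this mean, between 0.238 (Mcm2) and 0.675 (Cdc6), with Mcm7 at 0.604. Cdc6 was below the filter and not part of the mean. The 5 genes were picked as the nearest of 7555 and the members were not, so this gap follows from the choice. Mrs2, a mitochondrial magnesium channel, had 31, 15 and 23 reads in CTRL and 10, 14 and 23 reads in SEVO tumours 1 to 3. Polr1a, the large subunit of RNA polymerase I, had 44, 20 and 25 reads in CTRL and 12, 17 and 29 reads in SEVO tumours 1 to 3. The 5 genes are thus as sparsely counted as the members. All 5 have exon bases opposite another gene, from 6 (Prr15l) to 2466 (Mrs2), as only Mcm7 does among the members. Of the tested protein-coding genes, 2479 had such bases and 2752 had none, and nothing is drawn from this contrast. Their log2 fold changes were -0.79 (Prr15l) to -0.52 (Hnrnpl). Values like these follow from choosing genes by likeness to the members. They therefore say nothing on genes with opposite exons, whose median was -0.01. Nothing on shared function is drawn from the likeness.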

How the data were processed

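RNA from pieces of 3 CTRL and 3 SEVO tumours was made into libraries and sequenced together per the study's methods. The authors removed ribosomal RNA, trimmed with Trimmomatic (version 0.36 per the processing notes), aligned to GRCm38.p6 with STAR 2.6.0c and GENCODE M17, kept unique reads and deposited raw read counts per gene from HTSeq 0.9.1, without normalization. The strand setting is not given in the sources used here. Of 53801 identifiers, 53706 were matched without version to GENCODE M21 on the same build for symbols, positions, exon lengths and overlaps. Groups were taken from the labels. Genes were compared with edgeR 4.0.16 in R 4.3.3 (TMM, filterByExpr, quasi-likelihood test, Benjamini-Hochberg). DESeq2 1.42.0 was an alternative. Standard errors came from the F statistic, and log2 CPM used a prior count of 2. Members below the filter were tested in a fit on all genes with at least 1 read. CPM used 1 set of factors, from the filtered fit. The fits were tested on simulated data. The depth of 723431 to 1348676 counted reads, with a biological coefficient of variation of 0.398, limits the precision, and counts below about 10 reads carry large counting errors. Named genes were the 10 members, the 2 most-read tested genes of each list, and the 5 most alike in pattern. Members and lists were chosen with earlier results of these data known, and the classes by opposite exons, the promoter words and the microRNAs were chosen after the members' values were seen.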

Additional observations from a re-analysis of the deposited data

How the results depend on the processing

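Alternatives changed the normalization, the filter, the test, the pairing or a covariate, or left out each tumour; uniquely aligned reads as library size was chosen after seeing the data. The cause of a change was not tested. Of 142 values of single members over the alternatives, 131 kept their direction and none passed an adjusted p under 0.05 in edgeR or DESeq2. Without each tumour in turn, Mcm5 ranged from -1.31 to 0.39, Gmnn from -0.73 to 0.73, Mcm9 from -0.11 to 0.45, Mcmbp from -0.40 to 0.08, Rfc4 from -0.19 to 0.60 and Cul1 from -0.48 to 0.05. Mcm5 was above 0 with library size only (0.04), no filter (0.22), the DESeq2 Wald test (0.03), the background covariate (0.27), and without CTRL tumour 1 (0.39) or SEVO tumour 1 (0.17). Mcm7 was -0.12 with at least 10 reads in every tumour and -0.09 with uniquely aligned reads. Gmnn was -0.34 without CTRL tumour 1, -0.73 without SEVO tumour 3 and -0.21 with uniquely aligned reads. Library size only moved the median of all tested genes to 0.22, and that of the tested members was then -0.33. Without the filter these medians were -0.38 and -0.17, and in DESeq2 -0.55 and -0.34. Of 150 values of named pathway genes, 20 changed sign: with library size only Mcmbp (0.02) and Cul1 (0.07); with no filter Mcmbp (0.23), Cul1 (0.27) and Skp2 (0.05); with at least 10 reads in every tumour Orc3 (-0.12), Mcm9 (-0.00) and Rbl2 (-0.08); with the DESeq2 Wald test Mcmbp (0.09) and Cul1 (0.11); with uniquely aligned reads Orc3 (-0.08), Mcm9 (-0.01) and Rbl2 (-0.06); without CTRL tumour 1 Mcm9 (-0.11), Rfc4 (-0.19) and Cul1 (0.00); without CTRL tumour 2 Mcmbp (0.08); without SEVO tumour 1 Cul1 (0.05); and without SEVO tumour 2 Mcmbp (0.04) and Rfc4 (-0.12).

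At the thresholds of the study 79 genes and 0 members were called in edgeR. The counts of genes were 266 with no filter, 49 with the DESeq2 Wald test, 128 with the background covariate and 52 with uniquely aligned reads, and 13 to 1449 with a tumour left out, the highest without CTRL tumour 2. The count of members was 1 without Gm10800 and Gm10801 and with the background covariate (Mcm3 in both), and 0 to 1 with a tumour left out (Cdc6, without CTRL tumour 2). Over the fits without 1 tumour, the median of the tested members was -1.28 to -0.24 and 7 to 9 members were below 0. With uniquely aligned reads 10 were below 0, and with at least 10 reads in every tumour only Mcm2 and Mcm7 were tested. The number of genes at an adjusted p under 0.05 was 0 to 31 in these fits, again the highest without CTRL tumour 2. With the replicate number as a block, 129 genes passed the thresholds of the study and 1 an adjusted p under 0.05, with 0 members in either and a median of -0.75 for the tested members. The pairing has no source, same-numbered tumours had correlations of -0.399, 0.32 and 0.083, and not every tumour correlated best with its own number. A prior count of 0.5 or 5 gave a mean difference of -0.67 or -0.50 in log2 CPM, against -0.60.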
